A study of Mus musculus with 6 samples.

Results

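The copying of DNA before each cell division uses a set of proteins that assemble in order at replication origins. Origin licensing comes first. The origin recognition complex (ORC), CDC6 and CDT1 load the ring-shaped MCM2-7 complex onto DNA, and geminin blocks CDT1 once licensing is over. CDC45 and the GINS complex then turn MCM2-7 into the active replicative helicase, DNA polymerases alpha, delta and epsilon make the new strands, the RFC clamp loader places the sliding clamp PCNA, and fork protection factors keep helicase and polymerases together. In the mouse testis these genes are used by dividing spermatogonia, by preleptotene spermatocytes, which copy their DNA for the last time before meiosis, and by those somatic cells that still divide in the young animal.

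The data were RNA-Seq libraries of whole testes at postnatal day (PND) 12 from 3 WT mice (C57BL/6) and 3 Tardbp cKO mice, 1 library per mouse. Per the study's methods, cKO mice carried a floxed and a null Tardbp allele together with Stra8-iCre, a Cre recombinase driven by the Stra8 promoter in male germ cells, which removes exon 3 of the floxed allele. The null allele is present in somatic cells as well, and the WT mice carried neither the altered alleles nor Cre. The libraries are bulk tissue, in which fewer cells of a type and less RNA per cell cannot be told apart. The 42 genes described here were the replication genes of a fixed list of names that the authors' filter kept, out of 39253 genes in the count table and 16911 kept. They comprised 9 origin licensing genes, 12 helicase genes, 9 polymerase genes, 6 genes of the clamp and its loader, 2 genes of Okazaki fragment maturation and 4 fork protection genes. All 42 also passed the filter used here, at least 0.5 CPM (counts scaled to a fixed library size) in at least 3 libraries, which left 16622 genes to test.

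Library totals ran from 30028685 to 43371284 estimated counts. The 3 WT libraries and cKO 1 belonged to processing batch 2, and cKO 2 and cKO 3 to batch 1. The study's model holds a batch term, and because batch 1 has no WT library the log2 fold changes below compare cKO 1 with the 3 WT libraries, while cKO 2 and cKO 3 enter the estimate of the spread. The values of all 3 cKO libraries are therefore given first, as normalised CPM (the deposited log2 TMM values turned back to a linear scale). P values are from the quasi-likelihood test of edgeR, adjusted over the 16622 genes by the Benjamini-Hochberg method, with 0.05 as the threshold. Tardbp, whose count covers the whole gene and not exon 3 alone, was at 79.4%, 34.8% and 42.5% of its WT mean in cKO 1, cKO 2 and cKO 3. It did not pass in the comparison of cKO 1 with WT (log2 fold change -0.33, SE 0.125, adjusted p = 0.107 in edgeR). In the model without batch its log2 fold change was -0.94 (adjusted p = 0.0415 in edgeR). The library behind the fold changes below is thus the cKO library with the most Tardbp RNA.

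Promoter sequences are shown first because E2F factors are the textbook activators of replication genes and their sites are the best known shared feature of these promoters. RefSeq promoter windows (250 bases before to 50 after an annotated start, made on GRCm38.p6 and placed here on GRCm39 by exact match) were found for 33 of the 42 genes, 41 windows in all. Mcm4, Prim2, Gins4, Tipin, Gins1, Rfc2, Pole, Gins2 and Gmnn had none. The E2F words searched were TTTCCCGC, TTTCGCGC, TTTGCCGC and TTTGGCGC on both strands, overlaps counted. The stretches below run 5′ to 3′ on the strand of the gene, with matches in capitals. They show a pair of helicase genes, 2 ORC genes, a polymerase gene, the licensing gene Cdt1 and Wdhd1, which fell most and has no match in its window. The Orc1 and Cdt1 sites are given as 30 bases around the word. The other stretches start 170 bases (Mcm6, 200 bases) before the RefSeq start and end before the GENCODE gene begins.
Mcm5 (chr8:75835967-75836136, plus strand): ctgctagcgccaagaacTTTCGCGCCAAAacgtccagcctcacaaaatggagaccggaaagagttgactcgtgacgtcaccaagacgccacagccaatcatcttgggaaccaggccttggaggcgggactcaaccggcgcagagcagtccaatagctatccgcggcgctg
Mcm6 (chr1:128287517-128287642, minus strand): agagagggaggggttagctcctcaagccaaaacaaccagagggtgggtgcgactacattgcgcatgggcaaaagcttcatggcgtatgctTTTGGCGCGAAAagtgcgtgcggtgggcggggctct
Orc3 (chr4:34614958-34615112, minus strand): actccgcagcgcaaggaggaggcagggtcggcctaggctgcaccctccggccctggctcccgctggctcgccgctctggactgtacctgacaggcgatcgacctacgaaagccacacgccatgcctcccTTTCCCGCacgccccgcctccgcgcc
Pola1 (chrX:92675814-92675931, minus strand): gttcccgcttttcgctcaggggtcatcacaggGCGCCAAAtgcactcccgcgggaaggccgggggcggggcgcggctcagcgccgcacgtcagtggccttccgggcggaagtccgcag
Wdhd1 (chr14:47514344-47514484, minus strand): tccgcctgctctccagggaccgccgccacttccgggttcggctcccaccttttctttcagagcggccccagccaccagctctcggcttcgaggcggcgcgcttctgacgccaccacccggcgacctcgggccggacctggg
Orc1 (chr4:108436613-108436642, plus strand): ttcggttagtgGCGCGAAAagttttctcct
Cdt1 (chr8:123294774-123294803, plus strand): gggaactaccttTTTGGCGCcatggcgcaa

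An E2F word lay in 16 of the 41 member windows (39.0%), against 3.7% of the 16508 windows of genes tested. In Mcm5 and in Mcm6 the printed capitals hold a pair of overlapping words, 1 on each strand. Windows with a word were about as common on both sides of the test. In all, 8 of 21 windows of genes that fell held a word (38.1%) and 8 of 20 windows of genes that did not pass (40.0%). Counted by gene, 8 of the 16 genes with a word fell (median log2 fold change -0.55), as did 9 of the 17 genes without one (median -0.65). The CHR element (TTTGAA or TTCGAA), found in promoters of mitotic genes, was in 17.1% of the member windows and 14.4% of all, and CCAAT in 51.2% and 37.6%. TGTGTG, the motif that TDP-43, the protein made from Tardbp, binds, was in 17.1% of the member windows and in 16.8% of those of all genes tested. The word CNCCTCAG, a motif of the meiotic factor STRA8, was in 4.9% and 9.2%. Such matches describe letters in a window and were not tested as binding sites.

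The replication genes were lower in the cKO testes across the 6 groups. Of the 42 genes, 24 fell in cKO, 0 rose and 18 did not pass the test. Over all genes tested 9.23% fell and 6.83% rose. The median log2 fold change was -0.65, against 0.01 for all genes tested. At an unadjusted p under 0.05 edgeR gave 33 lower and 0 higher, against 18.8% and 16.5% of all genes tested, and DESeq2 called 29 lower and 0 higher (13.3% and 9.93% of all genes). With the batch 2 libraries alone, cKO 1 against the 3 WT mice, edgeR called 32 lower, against 14% of all genes lower and 11.1% higher. That fit has 1 cKO library and takes its spread from the 3 WT libraries alone. Without the batch term, where all 3 cKO mice are compared with WT, 36 were lower and 0 higher (16.7% of all genes tested were lower and 17.1% higher in that model), the median was -0.95, and the 24 genes were among the 36. In 39 of the 42 genes the highest cKO library was below the lowest WT library, and the same held for 27.1% of all genes tested. The other 3 were Cdt1, Pola1 and Pole2.

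**Figure D1:**
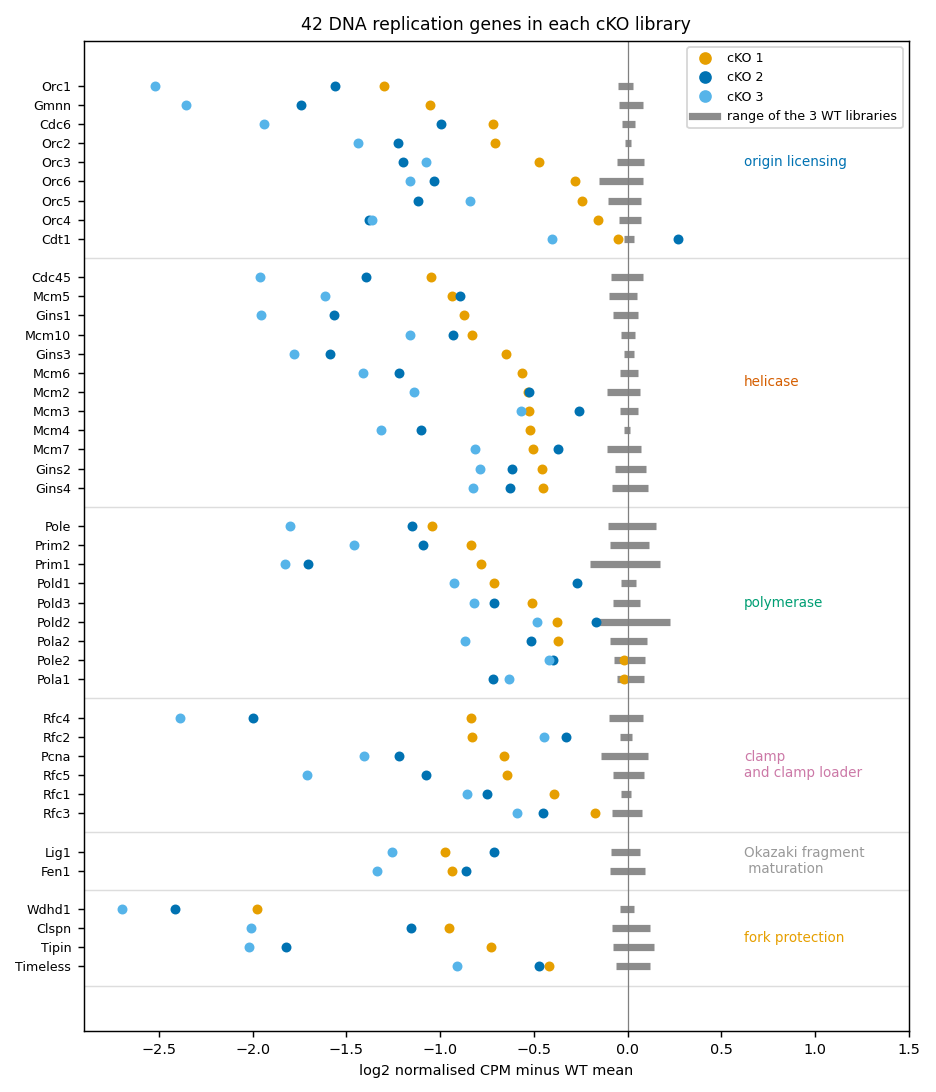
Log2 normalised CPM of each of the 42 replication genes in cKO 1, cKO 2 and cKO 3 minus the mean of the 3 WT libraries, with genes grouped by role and the grey bar spanning the WT libraries. In 39 genes all 3 cKO points lie to the left of the WT bar, and the cKO 3 point is the lowest of the 3 in 37 genes.

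The number of calls changed when a WT library was left out. With the batch term and without WT 1, WT 2 or WT 3, edgeR called 9, 1 and 2 of the 42 genes lower. Wdhd1 passed in each of these 3 fits. In them all 24 genes that fell in the full fit stayed below 0 at an unadjusted p under 0.05 in edgeR. Those genes were picked by their calls in the full fit with the same cKO libraries, so this is no separate support. The share of all genes at that threshold was not counted. The calls over all genes moved too, to 522, 5 and 220 genes lower (3.14%, 0.0301% and 1.32% of those tested) without WT 1, WT 2 or WT 3. Without cKO 2 or cKO 3 the count was 32 each time (14.1% and 14.3% of all genes), but these fits hold the same contrast of cKO 1 with WT, with the spread taken from the WT libraries alone, and say nothing about stability. cKO 1 cannot be left out of the model with batch. In the model without batch, leaving out WT 1, WT 2 or WT 3 gave 9, 0 and 2 of the 42 genes lower. Leaving out cKO 2 or cKO 3 gave 20 each, and leaving out cKO 1 gave 40. The shares of all genes lower were 2.72%, 0.00602% and 1.74% in the first 3 of these fits, 7.8% and 6.43% in the next 2 and 31.8% in the last.

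Of the 9 origin licensing genes 4 fell (Orc1, Gmnn, Orc2 and Orc3), with a group median log2 fold change of -0.47. Orc1, the ATPase subunit of ORC whose level rises and falls with the cell cycle in mammals, stood at 41.7, 39.6 and 41.8 CPM in WT 1, WT 2 and WT 3 and at 16.7, 13.9 and 7.14 CPM in cKO 1, cKO 2 and cKO 3. All cKO values of Orc1 lay under 50% of the WT mean, and its log2 fold change was -1.30 (SE 0.325, adjusted p = 0.0392 in edgeR). Gmnn, which encodes geminin, was at 51.7, 51.2 and 55.9 CPM in WT and at 25.5, 15.8 and 10.3 CPM in cKO, a log2 fold change of -1.05 (SE 0.222, adjusted p = 0.0267 in edgeR). Orc2, a core ORC subunit, was at 101.8 to 103.9 CPM in WT and at 62.9, 43.9 and 37.9 CPM in cKO, log2 fold change -0.71 (SE 0.112, adjusted p = 0.0163 in edgeR). Orc3, its partner in the complex, was at 72%, 43.5% and 47.4% of the WT mean (log2 fold change -0.47, adjusted p = 0.0326 in edgeR).

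Orc4, Orc5 and Orc6, the remaining ORC subunits, did not pass. Orc4 was at 68.3, 73.1 and 67.4 CPM in WT and at 62.4, 26.7 and 27.1 CPM in cKO. In cKO 1 it thus kept 89.7% of the WT mean, whereas cKO 2 and cKO 3 had 38.4% and 38.9%. Orc5 had 84.5%, 45.9% and 55.7% of its WT mean in cKO 1, cKO 2 and cKO 3, and Orc6 had 82.1%, 48.7% and 44.6%. Their log2 fold changes were -0.16, -0.24 and -0.28 (adjusted p = 0.293, 0.267 and 0.169 in edgeR), and without the batch term Orc5 and Orc6 passed (-0.69 and -0.78) and Orc4 did not (-0.85, adjusted p = 0.0762 in edgeR). Across the 6 ORC subunits the log2 differences from the WT mean spanned 1.14, 0.53 and 1.68 in cKO 1, cKO 2 and cKO 3, against 0.13 to 0.22 in the WT libraries. Each WT library is itself part of the WT mean, which narrows the WT spans here and for the complexes below. Spans of other sets of genes were not computed, and a change in subunit balance was not tested.

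Cdc6 and Cdt1, the factors that load MCM2-7 with ORC, did not pass. Cdc6 was at 27.0, 26.7 and 28.0 CPM in WT and at 16.5, 13.7 and 7.09 CPM in cKO, with no overlap, and its log2 fold change was -0.72 (SE 0.317, adjusted p = 0.151 in edgeR). Cdt1 was at 34.9, 33.7 and 33.6 CPM in WT and at 32.9, 41.1 and 25.7 CPM in cKO. cKO 2 was the highest of the 6 libraries for Cdt1 and cKO 3 the lowest, and the log2 fold change was -0.05 (SE 0.230, adjusted p = 0.888 in edgeR), or -0.04 in the model without batch. The ratio of Cdt1 to its inhibitor Gmnn was set against the mean WT ratio. It was 0.932 to 1.05 in the WT libraries and 2.00, 4.03 and 3.85 in cKO 1, cKO 2 and cKO 3. By log2 fold change Cdt1 changed least of the licensing genes, and only Orc1 fell more than Gmnn. The ratio thus joins values near both ends of the group, and a change in their balance was not tested.

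**Figure D2:**
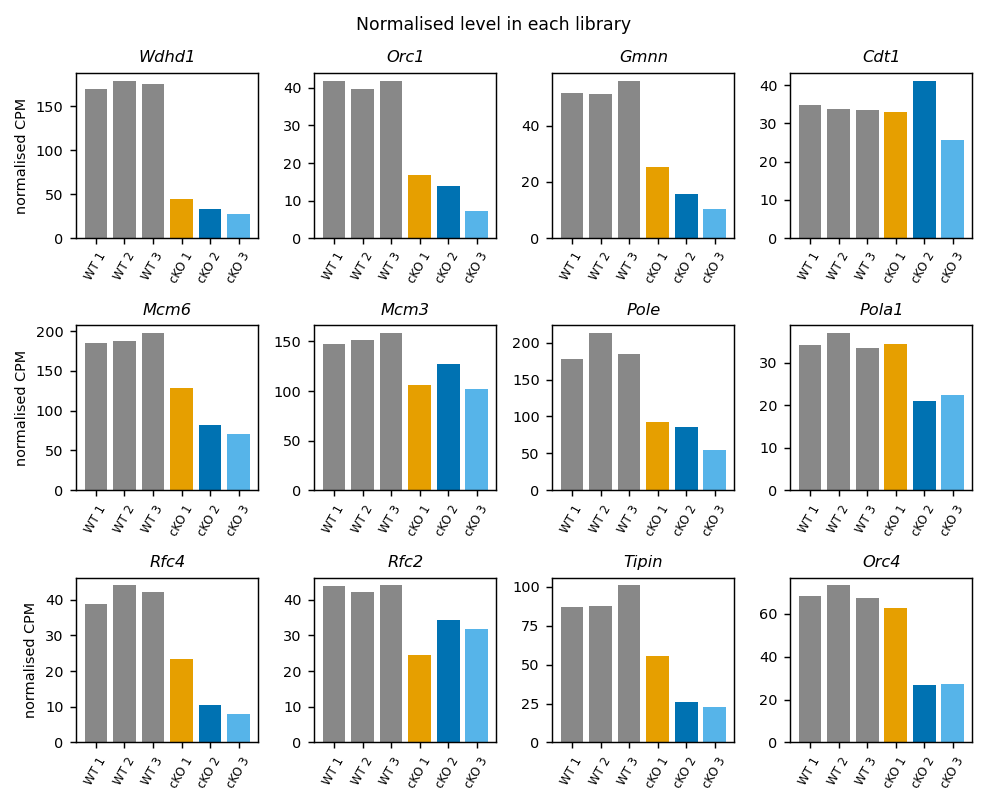
Normalised CPM of 12 replication genes in each of the 6 libraries, 1 bar per library, with WT in grey and cKO 1, cKO 2 and cKO 3 in colour. Wdhd1, Orc1, Gmnn, Pole, Rfc4 and Tipin are low in each cKO library, Orc4 and Pola1 are lower in cKO 2 and cKO 3 than in cKO 1, and Cdt1 has cKO bars on both sides of the WT bars.

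The helicase genes were low in each cKO library. Of the 12 genes 8 fell (Mcm3, Mcm4, Mcm5, Mcm6, Mcm10, Cdc45, Gins1 and Gins3), with a group median log2 fold change of -0.55, and without the batch term all 12 passed as lower. Mcm6 was at 184.6, 187.0 and 197.2 CPM in WT and at 128.0, 81.5 and 71.3 CPM in cKO, a log2 fold change of -0.57 (SE 0.110, adjusted p = 0.0224 in edgeR). Mcm5 was at 148.3, 164.3 and 164.4 CPM in WT and at 82.9, 85.4 and 51.8 CPM in cKO, a log2 fold change of -0.94 (SE 0.251, adjusted p = 0.046 in edgeR). Mcm3 changed less across the 3 cKO mice, from 147.9, 151.2 and 158.2 CPM in WT to 105.7, 127.2 and 102.5 CPM in cKO (log2 fold change -0.53, adjusted p = 0.0407 in edgeR). Mcm4 had 69.7%, 46.6% and 40.1% of its WT mean (log2 fold change -0.52, adjusted p = 0.0267 in edgeR). The remaining ring subunits had no overlap between groups but did not pass. Mcm2 had 69.2%, 69.4% and 45.2% of its WT mean (adjusted p = 0.13 in edgeR) and Mcm7 had 70.4%, 77.3% and 56.8% (adjusted p = 0.0866 in edgeR). The 6 MCM2-7 genes encode a ring with 1 copy of each subunit, and their log2 differences from WT spanned 0.07 to 0.16 in the WT libraries and 0.43, 0.96 and 1.05 in cKO 1, cKO 2 and cKO 3.

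Cdc45, which joins MCM2-7 in the active helicase, was at 72.4, 81.3 and 77.4 CPM in WT and at 37.2, 29.2 and 19.8 CPM in cKO. Each cKO value was under 50% of the WT mean, and the log2 fold change of -1.05 (SE 0.210, adjusted p = 0.0238 in edgeR) was the largest fall among the 12 helicase genes. Mcm10, needed for helicase activation, had 56.3%, 52.5% and 44.7% of its WT mean (log2 fold change -0.83, adjusted p = 0.0189 in edgeR). Of the 4 GINS subunits 2 passed. Gins1 had 54.5%, 33.8% and 25.7% of its WT mean and Gins3 had 63.8%, 33.2% and 29.2%, and both passed (log2 fold changes -0.88 and -0.65, adjusted p = 0.0359 and 0.046 in edgeR). Gins2, at 72.8%, 65.2% and 57.9%, and Gins4, at 73.1%, 64.6% and 56.3%, did not (log2 fold changes -0.46 and -0.45, adjusted p = 0.106 and 0.0586 in edgeR).

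Among the polymerase genes 4 of 9 fell (Pole, Prim1, Prim2 and Pold3), with a group median of -0.51. Pole, the catalytic subunit of polymerase epsilon, which makes the leading strand, was at 178.0, 212.6 and 185.0 CPM in WT and at 92.9, 86.3 and 55 CPM in cKO, a log2 fold change of -1.05 (SE 0.243, adjusted p = 0.0332 in edgeR). Pole2, the second subunit of the same enzyme, was at 15.2, 14.7 and 16.5 CPM in WT and at 15.2, 11.7 and 11.5 CPM in cKO. Its cKO 1 value lay inside the WT range and its log2 fold change was -0.02 (SE 0.157, adjusted p = 0.933 in edgeR). The Pole2 to Pole ratio relative to WT was 2.02, 1.67 and 2.58 in cKO 1, cKO 2 and cKO 3 and 0.852 to 1.10 in WT. By log2 fold change Pole fell most of the polymerase genes, and only Pola1 changed less than Pole2. This ratio too joins values near both ends of its group.

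The same kind of split was seen in polymerase alpha-primase, which starts each new strand with an RNA-DNA primer. Prim1, the catalytic primase subunit, was at 42.8, 55.5 and 50.3 CPM in WT and at 28.6, 15.1 and 13.9 CPM in cKO (log2 fold change -0.79, SE 0.165, adjusted p = 0.0263 in edgeR). Prim2, the regulatory primase subunit, had 55.9%, 46.8% and 36.3% of its WT mean (log2 fold change -0.84, adjusted p = 0.0234 in edgeR). Pola1, the catalytic polymerase subunit, was at 34.1, 37.0 and 33.5 CPM in WT and at 34.3, 21.1 and 22.5 CPM in cKO. The cKO 1 value of Pola1 was within the WT range and the other 2 were below it, and its log2 fold change was -0.02 (SE 0.118, adjusted p = 0.912 in edgeR), or -0.43 (adjusted p = 0.131) in the model without batch. Pola2, the accessory subunit, had 77.2%, 69.7% and 54.7% of its WT mean (adjusted p = 0.141 in edgeR). The 4 subunits spanned 0.82, 1.19 and 1.2 log2 units in cKO 1, cKO 2 and cKO 3, against 0.17 to 0.27 in WT.

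Polymerase delta makes the lagging strand. Its subunit Pold3 had 70.1%, 60.8% and 56.7% of its WT mean and passed (log2 fold change -0.51, SE 0.106, adjusted p = 0.026 in edgeR). Pold1, the catalytic subunit, had 60.9%, 82.8% and 52.6% and did not pass (log2 fold change -0.72, SE 0.226, adjusted p = 0.0701 in edgeR). Pold2 had 76.6%, 88.2% and 71.2%, and its WT libraries themselves ran from 37.0 to 48.4 CPM (adjusted p = 0.19 in edgeR).

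Of the clamp and clamp loader genes 4 of 6 fell (Pcna, Rfc1, Rfc2 and Rfc4), with a median of -0.65. Pcna, the sliding clamp, was at 149.3, 132.2 and 157.5 CPM in WT and at 92.4, 62.7 and 55.1 CPM in cKO, a log2 fold change of -0.66 (SE 0.132, adjusted p = 0.0238 in edgeR). Rfc1, the large loader subunit, had 76.2%, 59.4% and 55.1% of its WT mean (log2 fold change -0.39, adjusted p = 0.036 in edgeR). The small loader subunits differed between mice. Rfc4 was at 38.8, 44.0 and 42.2 CPM in WT and at 23.3, 10.4 and 7.95 CPM in cKO, a log2 fold change of -0.84 (SE 0.173, adjusted p = 0.0259 in edgeR). Rfc2 was at 43.8, 42.1 and 43.9 CPM in WT and at 24.4, 34.4 and 31.7 CPM in cKO, a log2 fold change of -0.83 (SE 0.114, adjusted p = 0.0147 in edgeR). In cKO 1 both genes were thus at 56% of WT, with a ratio of Rfc2 to Rfc4 relative to WT of 1.00, whereas in cKO 2 and cKO 3 that ratio was 3.17 and 3.83 (WT libraries 0.917 to 1.08). Rfc2 was the highest and Rfc4 the lowest of the 5 RFC genes in cKO 2 and cKO 3. Their ratio there is thus the widest that these genes give. Rfc5 had 63.9%, 47.4% and 30.5% of its WT mean (adjusted p = 0.0949 in edgeR) and Rfc3 had 88.6%, 73% and 66.3% (adjusted p = 0.364 in edgeR). The 5 RFC genes spanned 0.66, 1.67 and 1.94 log2 units in cKO 1, cKO 2 and cKO 3, and 0.07 to 0.16 in WT.

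Both genes of Okazaki fragment maturation fell. Lig1, the ligase that seals lagging strand fragments, was at 151.8, 169.4 and 164.5 CPM in WT and at 82.4, 98.6 and 67.8 CPM in cKO (log2 fold change -0.98, SE 0.201, adjusted p = 0.0259 in edgeR). Fen1, the nuclease that trims the flaps before ligation, was at 66.8, 62.6 and 71.1 CPM in WT and at 34.9, 36.8 and 26.4 CPM in cKO (log2 fold change -0.94, SE 0.189, adjusted p = 0.0245 in edgeR).

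Among the 4 fork protection genes Wdhd1 and Tipin fell, and the group median was -0.84. Wdhd1, the mammalian counterpart of yeast Ctf4, which ties polymerase alpha to the helicase, was at 169.8, 178.7 and 175.0 CPM in WT and at 44.3, 32.7 and 26.9 CPM in cKO. These are 25.4%, 18.8% and 15.4% of the WT mean. The log2 fold change of -1.98 (SE 0.137, adjusted p = 0.00285 in edgeR) was the largest of the 42. Tipin, which forms a complex with Timeless at the fork, was at 86.9, 87.8 and 101.0 CPM in WT and at 55.3, 26.0 and 22.6 CPM in cKO (log2 fold change -0.73, SE 0.135, adjusted p = 0.0208 in edgeR). Timeless had 74.7%, 71.9% and 53.2% of its WT mean (log2 fold change -0.42, adjusted p = 0.137 in edgeR). Clspn, which encodes the checkpoint mediator claspin, had 51.6%, 44.8% and 24.8%, and with an SE of 0.290 its log2 fold change of -0.95 did not pass (adjusted p = 0.0636 in edgeR).

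The cKO libraries differed among themselves. The number of replication genes under 50% of the WT mean was 5 in cKO 1, 21 in cKO 2 and 26 in cKO 3, against 5.34%, 13.2% and 15.8% of all genes tested. The number below each WT library was 40, 41 and 42, against 38.5%, 43% and 42.4% of all genes. The group medians of the log2 difference from WT were -0.47, -1.20 and -1.36 in cKO 1, cKO 2 and cKO 3 for licensing, -0.55, -0.91 and -1.24 for the helicase, and -0.51, -0.72 and -0.87 for the polymerases. For the clamp and its loader they were -0.65, -0.91 and -1.13, for fork protection -0.84, -1.49 and -2.01, and for Okazaki fragment maturation -0.95, -0.79 and -1.30. The contrast of cKO 2 and cKO 3 with cKO 1 in edgeR gave 17 of the 42 genes lower and 1 higher, against 16.2% and 15.8% of all genes tested. Processing batch and animal cannot be told apart in it. In 32 genes both cKO 2 and cKO 3 lay below cKO 1, as in 41.9% of all genes tested. Without cKO 2 it gave 28 lower (16.9% of all genes), but it then compares 1 library with 1, with the spread taken from WT alone.

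The largest such differences were -1.35 for Rfc4, -1.22 for Orc4, -1.19 for Tipin and -1.04 for Gins3 on the log2 scale (adjusted p = 0.00215, 0.000833, 0.00149 and 0.0051 in edgeR). Rfc2 was the gene that was higher, by 0.44 (adjusted p = 0.0264 in edgeR), and 0 genes were higher without WT 1, WT 3 or cKO 2. Of the 17 genes, 13 had also fallen in cKO against WT, and the other 4 (Orc4, Orc5, Orc6 and Pola1) had not passed there. By group, 6 of 9 licensing genes, 4 of 12 helicase genes, 2 of 9 polymerase genes, 3 of 6 clamp and loader genes, 0 of 2 Okazaki genes and 2 of 4 fork protection genes were lower. The differences of Lig1, Fen1 and Cdt1 were 0.01, -0.15 and 0.02 on the log2 scale.

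**Figure D3:**
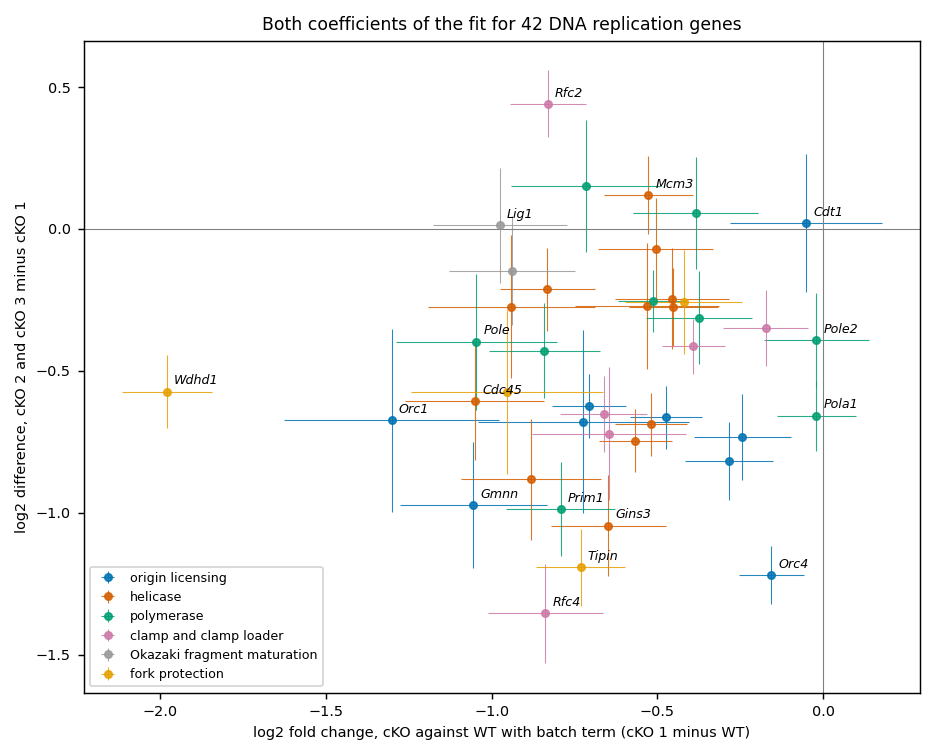
For each of the 42 replication genes, the log2 fold change of cKO against WT with the batch term (x axis) and the log2 difference of cKO 2 and cKO 3 from cKO 1 (y axis), with standard errors as lines and colours for the groups. Wdhd1 lies farthest to the left at -1.98, Rfc4 lowest at -1.35, and Orc4 is low on the y axis (-1.22) but near 0 on the x axis (-0.16).

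Among genes that work with the replication machinery, those that passed were lower. Of 25 other replication factors 11 fell and 0 rose (median -0.46). Rpa2, a subunit of the single-strand binding protein RPA, was at 40.9%, 47.7% and 35.1% of its WT mean (log2 fold change -1.29, adjusted p = 0.0152 in edgeR), Atad5, which unloads PCNA, at 42.3%, 25.6% and 19.1% (-1.24, adjusted p = 0.0152), and Topbp1, which acts in helicase assembly and checkpoint signalling, at 55%, 42.9% and 39% (-0.86, adjusted p = 0.0143). Of 10 genes of nucleotide supply 4 fell and 0 rose (median -0.30). Among those that fell were Rrm1 and Rrm2, the subunits of ribonucleotide reductase, with log2 fold changes of -0.50 and -1.04, and Dck, a salvage kinase (-0.79). Without the batch term 5 genes of this list were lower and 1 was higher (16.7% and 17.1% of all genes tested). Of 10 genes of chromatin assembly behind the fork 4 fell and 0 rose (median -0.58), among them the histone chaperones Asf1b (-1.65) and Nasp (-0.91) and the histone acetyltransferase Hat1 (-0.78). Of 20 mitosis genes 11 fell and 0 rose (median -0.63), including the checkpoint kinase Bub1 (-1.61), the spindle motor Kif11 (-0.83) and the cytokinesis protein Anln (-0.67). Of 10 genes of quiescence and cell cycle exit 0 fell and 1 rose, the inhibitor Cdkn1c (0.92, adjusted p = 0.0382 in edgeR), with a list median of -0.02. That list moved both ways, with 2 lower and 3 higher at an unadjusted p under 0.05 in edgeR. DESeq2 called 1 of its genes lower and 2 higher. Without WT 1, WT 2 or WT 3 the lists kept 6, 0 and 3 lower calls among other replication factors, 1, 0 and 0 for nucleotide supply, 3, 0 and 1 for chromatin assembly and 5, 0 and 3 for mitosis, and Cdkn1c lost its call each time.

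Marker genes of the cell types of the testis moved between the same libraries. Of 20 genes of preleptotene to zygotene spermatocytes 19 fell and 0 rose (median -2.34). The smallest p values were those of Msh5, Msh4 and Rad21l (log2 fold changes -2.84, -2.34 and -2.32). The CPM of the 20 genes, summed and here scaled to the library total alone, was 2648 to 3500 in WT and 656, 381 and 173 in cKO 1, cKO 2 and cKO 3. Of 10 genes of differentiating spermatogonia 6 fell, among them Kit (-0.94) and Rhox13 (-2.52), and 1 rose, Ccnd2 (0.69), and the summed CPM was 1790 to 1983 in WT and 1020, 677 and 533 in cKO. Of 13 genes of undifferentiated spermatogonia 0 fell and 2 rose, Bcl6b (0.93) and Etv5 (0.40). Etv5 was at 132%, 247% and 267% of its WT mean in cKO 1, cKO 2 and cKO 3. At an unadjusted p under 0.05 edgeR gave 1 of the 13 lower and 2 higher. Without the batch term 2 were lower and 4 higher. Each cKO library was below each WT library in 3 of the 13 genes and above in 4 (27.1% and 25.7% of all genes tested). The summed CPM of the 13 genes was 764 to 798 in WT and 658, 826 and 575 in cKO. The replication genes summed to 3444 to 3572 CPM in WT and to 2204, 1761 and 1328 CPM in cKO. The spermatocyte and differentiating spermatogonia sums had the same order of cKO libraries. So did mitosis (1526, 972 and 736 CPM), other replication factors (1209, 968 and 855), nucleotide supply (494, 327 and 296) and chromatin assembly (821, 684 and 490). Sertoli and macrophage sums, given below, had the reverse order. This order of libraries also separates batch 2 from batch 1, and its cause was not tested.

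Of 20 Sertoli cell genes 13 rose and 1 fell (median 0.49), with Gdnf, Shbg and Amh at log2 fold changes of 1.21, 0.50 and 1.32, and the summed CPM was 7547 to 8583 in WT and 11362, 15940 and 16772 in cKO. Sertoli cells are the somatic cells of the tubule and stop dividing in the young animal. Of the other somatic lists, 1 of 7 tested Leydig cell genes rose (Insl3, 0.80) and 1 of 7 endothelial genes rose (Kdr, 0.86). Insl3 was at 174%, 603% and 565% of its WT mean in cKO 1, cKO 2 and cKO 3, and Kdr at 181%, 123% and 170%. In all, 0 of 7 peritubular myoid and 0 of 8 macrophage genes passed (1 of each higher at an unadjusted p under 0.05, and 1 and 0 higher in DESeq2). Without the batch term 1 Leydig, 3 endothelial and 3 macrophage genes were higher, and 1 myoid gene was lower. Each cKO library was above each WT library in 5 of the 8 macrophage genes, against 25.7% of all genes tested. Summed CPM was 394 to 792 in WT and 832, 555 and 787 in cKO for Leydig cells, 152 to 164 and 243, 183 and 263 for endothelial cells, 1143 to 1364 and 1470, 1041 and 1264 for myoid cells, and 119 to 146 and 160, 219 and 250 for macrophages. Cyp11b1, the Leydig marker below the filter, reached at most 0.262 CPM. Without WT 1, WT 2 or WT 3 the spermatocyte list had 16, 0 and 7 lower calls, differentiating spermatogonia 2, 0 and 1, and the Sertoli list 7, 0 and 6 higher calls, while Leydig cells had 2, 0 and 0 and endothelial cells 0 each time. The part of these cell type differences in the replication gene values was not tested.

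**Figure D4:**
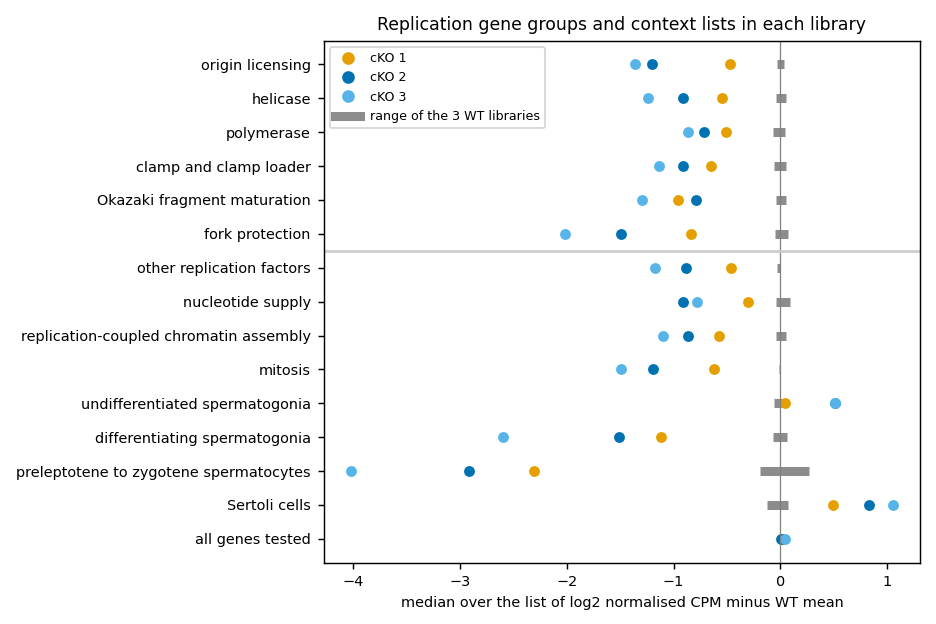
Median over each list of the log2 normalised CPM minus the WT mean, in cKO 1, cKO 2 and cKO 3, with the grey bar spanning the 3 WT libraries, for the 6 replication gene groups above the line and for context lists and all genes tested below it. The 6 groups have medians from -0.47 to -2.01, the spermatocyte list from -2.31 to -4.02, the Sertoli list from 0.49 to 1.06, and all genes tested lie near 0.

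The 42 genes lie on 16 chromosomes, with 7 on chromosome 5, 6 on chromosome 8 and 3 on chromosome 4, where Tardbp also lies. TDP-43 is known to bind RNA, often in long introns, so total intron length per gene in GENCODE was set beside the calls. The median was 14057 bases over the 42 genes (1753 to 313573), 23334 in the 24 that fell, 8899 in the 18 that did not pass, and 19006 over 15632 tested genes with a position. Pola1, with the longest introns (313573 bases), and Prim2 (210194 bases) differ in outcome, since Prim2 fell and Pola1 did not pass. These calls compare cKO 1 with WT, and Pola1 was at 60.6% and 64.5% of its WT mean in cKO 2 and cKO 3. The same split by call was not made over all genes tested. A link between intron length and the calls was not tested.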

How the data were processed

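The authors made stranded poly(A) libraries from whole testis RNA and quantified the reads with Salmon 1.2.0 against NCBI mouse transcripts, with GRCm39 as decoy. The expected counts were made by the authors with tximport, which summed transcripts to genes after sequence and GC bias correction, so reads shared by similar genes are split between them. The deposited log2 values are the authors' TMM-normalised log2 CPM. A recalculation from the counts, with a prior count of 2, differed by at most 5.15e-14, which means that no batch correction is in them. Normalised CPM per library are these values on the linear scale. The submitters' processing notes name edgeR 3.32.1 and limma 3.46.0.

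Expected counts were rounded and tested here with edgeR 4.0.16 in R 4.3.3 (TMM, batch and genotype, at least 0.5 CPM in at least 3 libraries), after a check on simulated data. Each library held at least 30028685 counts. Alternatives were DESeq2 1.42.0, limma 3.58.1, other normalisations and filters, fits without batch or with the replicate number as a block, and leaving out each library. Named genes are the 42 members, Tardbp, and up to 3 genes per context list with the smallest p among those that passed. The members, groups and lists were chosen with earlier results of these data known.

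The labels number the replicates 1 to 3 in both groups. Deviations from the group mean correlated at -0.10, -0.06 and 0.01 between same-numbered libraries, so the numbers were not taken as pairs. Positions and introns are from GENCODE vM39. Promoters are from RefSeq.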

Additional observations from a re-analysis of the deposited data

How the results depend on the processing

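Of the 42 replication genes, 39 had a log2 fold change below 0 under each of the 24 alternatives run. In the same 39 genes each cKO library was below each WT library. The alternatives reuse these libraries, so the count is no separate support. The exceptions were Pola1 (0.0113 with the replicate block, -0.698 to 0.0244 with 1 library left out), Pole2 (0.0046 with the block, -0.431 to 0.0274 with 1 library left out) and Cdt1 (-0.219 to 0.118 with 1 library left out). The median over all genes tested moved by less than 0.1 in each alternative.

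Without the batch term 2784 genes were lower and 2836 higher, and the medians were -0.95 over the replication genes, -0.88 for licensing, -0.95 for the helicase, -0.61 for polymerases, -0.86 for the clamp and loader and -1.36 for fork protection. limma-trend on the deposited log2 values without batch gave 37 replication genes lower, 3034 genes lower and 2675 higher, and medians of -0.98, -0.97, -0.98, -0.64, -0.88 and -1.45 in that order, with -1.01 for Okazaki fragment maturation. With the batch 2 libraries alone 2324 genes were lower and 1845 higher. With library size only, 22 replication genes were lower and 0 higher in cKO 2 and cKO 3 than in cKO 1. The shares of all genes in that contrast were not counted.

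With the replicate number as a block, which did not pair the samples, 10 replication genes were lower, 577 genes lower and 635 higher. The medians were -0.42 for licensing and -0.43 for polymerases. Under the block 9 replication genes were lower and 0 higher in cKO 2 and cKO 3 than in cKO 1. The shares of all genes in that contrast were not counted. The block without batch gave 2349 genes lower and 1925 higher, and medians of -0.98 over the replication genes, -0.97 for licensing, -0.98 for the helicase, -0.64 for polymerases, -0.88 for the clamp and loader, -1.01 for Okazaki fragment maturation and -1.45 for fork protection.

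Leaving out 1 library, with or without the batch term, gave 0 to 40 replication genes lower, 1 to 5280 genes lower and 0 to 5008 higher. The medians ran from -1.14 to -0.60 over the replication genes, -1.35 to -0.43 for licensing, -1.14 to -0.53 for the helicase, -0.70 to -0.48 for polymerases, -1.08 to -0.60 for the clamp and loader, -1.12 to -0.87 for Okazaki fragment maturation and -1.74 to -0.83 for fork protection. In the contrast of cKO 2 and cKO 3 with cKO 1 they gave 17 to 28 genes lower and 0 to 2 higher. The cause of these shifts was not tested. With 3 mice per group and 1 cKO mouse in the batch of the WT mice, the fold changes with the batch term rest on a single cKO animal.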
